A study of Mus musculus with 8 samples.

Results

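Leukocyte integrins were examined in induced regulatory T cells (iTreg), sorted as Nrp-1+ or Nrp-1-, through the transcripts of 9 subunit genes, taken by symbol from the 23361 genes with an FPKM value: the alpha subunits Itgae, Itgal, Itga4, Itga5 and Itga6, and the beta subunits Itgb1, Itgb2, Itgb3 and Itgb7. The subunits alpha v and beta 8, which are known for activating latent TGF-β, were left out of the group by the rule that defined it. FPKM is the number of sequenced fragments relative to the length of the transcript and to the mapped fragments of the library, so levels of different genes can be set beside each other.

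The study asked whether Nrp-1, a co-receptor found on many regulatory T cells, divides iTreg into subsets, and the libraries used here compare Nrp-1+ iTreg with Nrp-1- iTreg, 4 libraries each, labelled as biological replicates. All were wild type (WT) cells that began as naive CD4+ T cells of the CD44low CD62Lhigh phenotype. They were sorted from Foxp3-RFP mice, in which a red fluorescent protein reports Foxp3, and the study's methods name the spleen and the B6 strain. Both subsets received the same anti-CD3/CD28 microbeads, IL-2 and TGF-β at 2 ng/ml. The labels give IL-2 as 50 U/ml, whereas the study's methods state it in ng/ml. Viable CD4+ Foxp3-RFP+ cells were sorted before the division by Nrp-1, so both groups are Foxp3+ cells made in culture with no untreated or unsorted control among the 8 libraries. The labels give 3 days of culture in one field and day 5 in another, and the study's methods name day 3 for the sort. The labels do not give the age of the mice, which were young adults by the study's methods. Nor do they state whether subsets of the same number came from the same culture, and p-values measure the spread between these libraries only.

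Integrins are cell surface receptors made of an alpha and a beta chain, which bind to counter-receptors on other cells or to proteins of the extracellular matrix. On T cells they are kept in a low affinity state until signals from the T cell receptor or chemokine receptors reach the cytoplasmic tail of the beta chain through talin and kindlin, a step called inside-out activation. The alpha L beta 2 integrin (LFA-1) binds ICAM molecules and holds T cells to antigen presenting cells, alpha 4 beta 1 (VLA-4) binds VCAM-1 and fibronectin, alpha 4 beta 7 binds MAdCAM-1 and directs lymphocytes to the gut, and alpha E beta 7 (CD103) binds E-cadherin on epithelium and is induced by TGF-β in many T cells. A beta chain can pair with several alpha chains, so the pairs on the cell surface cannot be read from transcript levels.

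The sort and the identity of the cells were checked first. Nrp1 itself, the gene the sort was based on, had an FPKM of 21.5 ± 0.709 (mean ± SD, n = 4 here and below) in Nrp-1+ iTreg and 4.95 ± 0.262 in Nrp-1- iTreg. The summed FPKM of the T cell markers, of which 6 of 7 matched a symbol, lay between 1783 and 1823 in Nrp-1+ iTreg and between 1806 and 1910 in Nrp-1- iTreg, but single markers differed. Foxp3 (115.8 against 108.8, limma adjusted p = 0.0245) and Il2ra (265.5 against 227.9, limma adjusted p = 0.000108) were higher in Nrp-1+ iTreg, Cd3d (436.8 against 496.4, limma adjusted p = 0.00370) and Cd3g (443.7 against 478.9, limma adjusted p = 0.0375) were lower, and Cd3e and Cd4 were not called. Summed markers of macrophages without the integrin Itgam stayed at or under 0.503, those of dendritic cells at or under 0.377, of NK cells at or under 1.07 and of platelets at or under 0.650 in every library, and the 3 neutrophil markers measured were listed at 0. B cell markers summed to 5.21 to 5.91 and 4.01 to 5.80, nearly all of it Cd79b, with Ms4a1 at 0 throughout. The erythroid sum was higher in Nrp-1+ iTreg, at 5.51 to 7.57 against 2.02 to 3.29, and came from Hba-a1. The CD8 sum was lower, at 7.10 to 8.78 against 9.33 to 11.3, and came from Cd8b1, with Cd8a near 0. The part of these markers in the integrin results was not tested. Low values gave an approximate depth of 15.4 M to 23.3 M fragments per library (M for 1e+06), and the summed FPKM of short RNA genes came to between 1.77% and 43.9% of the total.

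Itgb1 carries the largest difference among the 9 genes, and its promoter is shown for that reason. RefSeq places the gene on the plus strand of chromosome 8 of GRCm38.p6, at chr8:128685654-128733579, and its longest annotated transcript has 16 exons. The 250 bases before its start (chr8:128685404-128685653, plus strand, RefSeq sequence) read as follows, with a GC box (GGGCGG) in capitals.
Itgb1 promoter: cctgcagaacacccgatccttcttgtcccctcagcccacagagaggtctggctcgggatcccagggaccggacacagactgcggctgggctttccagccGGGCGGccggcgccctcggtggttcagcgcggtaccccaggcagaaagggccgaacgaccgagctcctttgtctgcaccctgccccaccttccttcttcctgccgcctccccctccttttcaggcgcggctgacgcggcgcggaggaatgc
This window has a GC content of 68.0% and 21 CpG dinucleotides, whereas the median of all promoters of this length was 52.4% and 6. The other members lie on the plus strand at chr11:73090505-73147449 (Itgae), chr7:127296139-127335137 (Itgal), chr2:79255426-79333114 (Itga4), chr2:71786886-71858427 (Itga6), chr10:77530329-77565708 (Itgb2) and chr11:104608000-104670476 (Itgb3), and on the minus strand at chr15:103344286-103366791 (Itga5) and chr15:102215994-102233405 (Itgb7). The promoter table matched 4 of the 9 members, Itga4, Itga5, Itgb1 and Itgb7. The window listed for Itgb7 (chr15:102231936-102232185) lies inside the gene span given above. It thus does not show the bases before that start, whereas the windows of Itga4, Itga5 and Itgb1 end at the start given. The letters GGGCGG, searched on both strands, were found once in the windows of Itga4 and Itgb1, at 2 places in that of Itga5 and not in that of Itgb7, and 32.7% of all 32851 promoters hold them. The letters CCAAT (in 33.8% of all promoters), TATAAA (12.4%) and TGANTCA (6.75%) were in none of the 4 windows. None of these motifs contains another, and a match is a description of the sequence only.

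Among the integrin subunits, Itgb1 stood apart: its transcript was 1.69 times as high in Nrp-1+ iTreg as in Nrp-1- iTreg, Itga6 was slightly higher, Itgb3 was lower, and the other 6 subunits were not called. All 9 genes passed the filter, a mean FPKM of 1 or more, and were tested by limma on log2(FPKM + 1), which understates the change of low genes, with Benjamini-Hochberg adjustment over 10467 genes. With an adjusted p under 0.05, 2 members were higher and 1 was lower, which is 33.3% of the members, beside 40.9% of all genes tested (20.9% higher and 20.0% lower). The groups did not overlap in FPKM for the same 3 members, beside 39.5% of all genes tested. The median log2 difference, Nrp-1+ minus Nrp-1-, was -0.0031 over the members and -0.0155 over all genes tested. Of the calls over all genes, 51.1% were on the higher side, and this share moved to 40.0% once the values of a library had been corrected for the GC content and length of the genes. In bulk RNA, a smaller number of cells with a transcript and less of that transcript in each cell cannot be told apart.

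**Figure D1:**
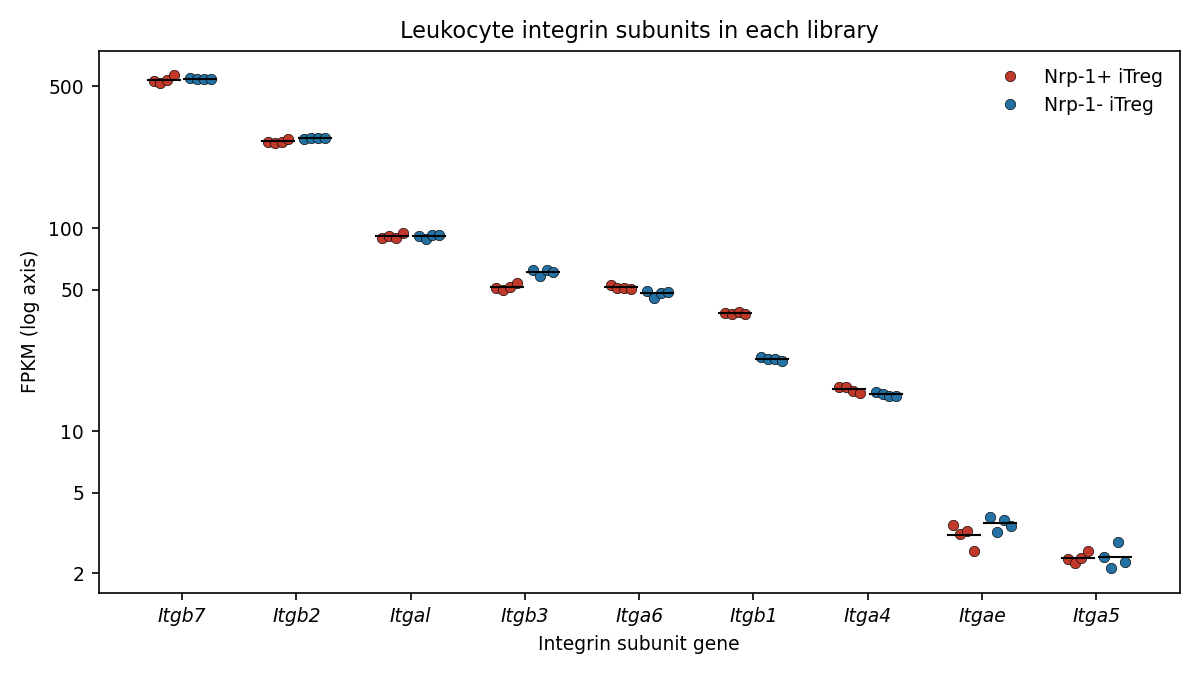
FPKM (log axis) of the 9 leukocyte integrin subunits in iTreg sorted as Nrp-1+ or Nrp-1-, with 1 point for each of the 8 libraries and a line at the group mean. The mean levels run from 2.40 for Itga5 to 537.6 for Itgb7 in Nrp-1+ iTreg, and the clearest gap between the groups is that of Itgb1, at 37.8 to 38.8 against 22.2 to 23.2.

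Itgb1, the beta 1 chain shared by the matrix-binding and VCAM-1-binding integrins, had an FPKM of 38.3, 38.1, 38.8 and 37.8 in Nrp-1+ iTreg replicates 1 to 4, and of 23.2, 22.7, 22.7 and 22.2 in Nrp-1- iTreg. Every Nrp-1+ library was above every Nrp-1- library, and the libraries of a group lay close together. The means were 38.2 ± 0.429 and 22.7 ± 0.401, and the log2 difference was 0.73 (SE 0.02, 95% interval 0.68 to 0.78, limma adjusted p = 2.33e-07). By the size of its log2 difference Itgb1 ranked 476 of 10467 genes, and its level rested on roughly 1335 to 3349 fragments per library. In 20 alternative fits the difference stayed between 0.69 and 0.75.

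The alpha chains that pair with beta 1 did not move by as much. Itga6, the alpha 6 chain of laminin receptors, had an FPKM of 52.7, 51.0, 51.1 and 50.5 in Nrp-1+ iTreg and of 49.2, 45.5, 48.0 and 48.6 in Nrp-1- iTreg. The groups did not overlap, but the lowest Nrp-1+ and the highest Nrp-1- library were only 50.5 and 49.2. The means were 51.3 ± 0.960 and 47.8 ± 1.61, a log2 difference of 0.10 (SE 0.03, limma adjusted p = 0.0220). The call was lost with the GC and length correction (0.07, limma adjusted p = 0.104), with quantile normalization (0.09, limma adjusted p = 0.109) and without replicate 1 of Nrp-1+ iTreg (0.09, limma adjusted p = 0.0572).

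Itga4, the alpha 4 chain that pairs with beta 1 or beta 7, had an FPKM of 16.5, 16.6, 15.9 and 15.5 in Nrp-1+ iTreg and of 15.7, 15.3, 14.9 and 15.0 in Nrp-1- iTreg. The value of Nrp-1+ replicate 4 fell inside the range of the Nrp-1- libraries. The means were 16.1 ± 0.524 and 15.2 ± 0.344, and the log2 difference of 0.08 (SE 0.03, 95% interval 0.01 to 0.15) was not called (limma adjusted p = 0.0678). It was called with array weights (limma adjusted p = 0.0448) and without replicate 4 of Nrp-1+ iTreg (0.10, limma adjusted p = 0.0365). Exons of Cerkl lie on the opposite strand within those of Itga4, and Cerkl was at 2.59 ± 0.421 and 2.09 ± 0.509; since the paper and the labels name different library kits, it is not known here whether the counting used strand.

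Itga5, the alpha 5 chain of the fibronectin receptor, was the lowest of the members, at 2.37, 2.26, 2.38 and 2.58 in Nrp-1+ iTreg and 2.40, 2.12, 2.85 and 2.28 in Nrp-1- iTreg. The groups overlapped throughout, with the highest and the lowest value both in Nrp-1- iTreg. The log2 difference was -0.0031 (SE 0.07, 95% interval -0.17 to 0.16, limma adjusted p = 0.979), and its level rested on only about 180 to 247 fragments per library.

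Set against each other within a library, where scaling between libraries plays no part, the levels of the 3 alpha chains together came to 1.83 ± 0.0340 times that of Itgb1 in Nrp-1+ iTreg and to 2.89 ± 0.0821 times in Nrp-1- iTreg. The groups did not overlap, and the ratio in Nrp-1+ iTreg was 0.633 times that in Nrp-1- iTreg (exact two-sided permutation test, p = 0.0286, the smallest possible with 4 against 4 libraries, and 0.0286 when adjusted by Benjamini-Hochberg over 4 ratios). With all 12 alpha chains named as partners of beta 1 in the lists used (Itga1 to Itga11 and Itgav), the ratio was 2.29 ± 0.0245 and 3.82 ± 0.0834. The sum of the alpha chains exceeded the beta chain in both subsets.

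**Figure D2:**
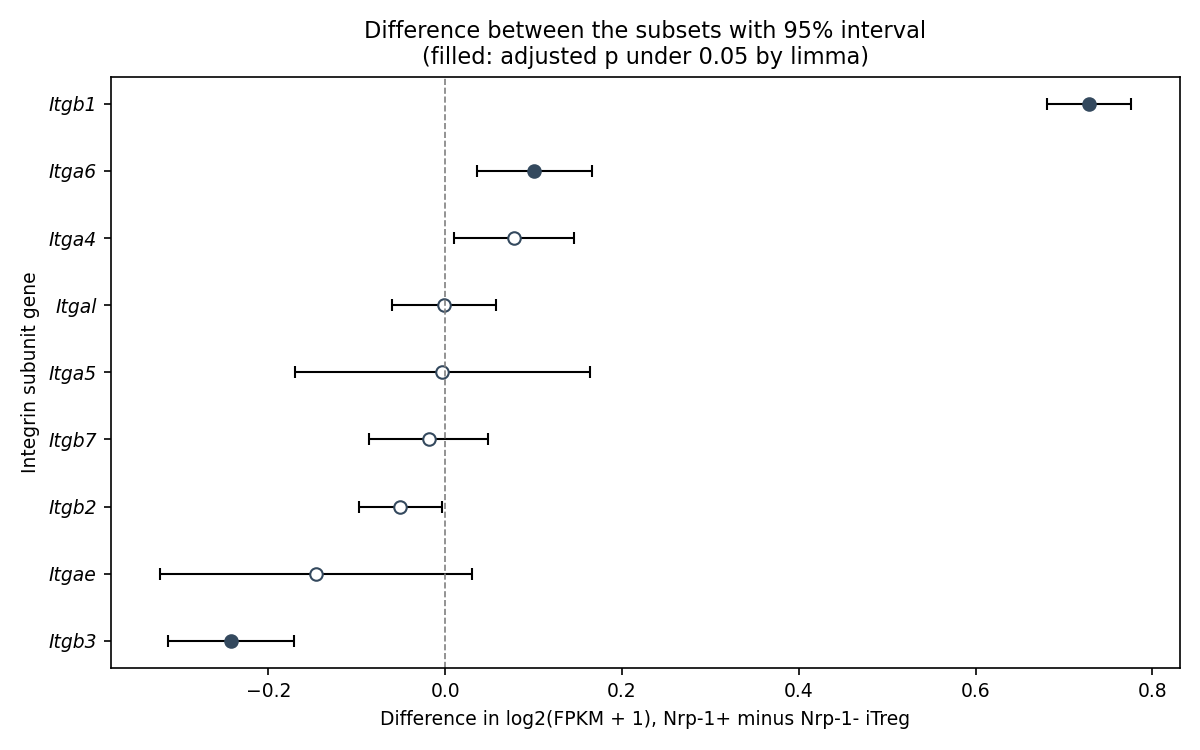
Log2 difference in FPKM + 1, Nrp-1+ minus Nrp-1- iTreg, for the 9 subunits, with 95% intervals from limma over 4 against 4 libraries; filled points have an adjusted p under 0.05. Itgb1 lies at 0.73, Itga6 at 0.10 and Itgb3 at -0.24, and the intervals of Itgal, Itga5, Itgb7 and Itgae include 0.

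Beta 7 was the most abundant chain and differed little. Itgb7, the beta 7 chain of the gut-homing and epithelium-binding integrins, had an FPKM of 530.3, 517.5, 535.9 and 566.6 in Nrp-1+ iTreg and of 547.2, 543.2, 541.8 and 545.3 in Nrp-1- iTreg, and ranked 186 of 23361 genes by mean FPKM. The Nrp-1+ libraries spread on both sides of the Nrp-1- libraries, with replicate 4 the highest. The means were 537.6 ± 20.8 and 544.4 ± 2.36, a log2 difference of -0.02 (SE 0.03, 95% interval -0.09 to 0.05, limma adjusted p = 0.637).

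Itgae, the alpha E chain (CD103), had an FPKM of 3.45, 3.13, 3.23 and 2.58 in Nrp-1+ iTreg and of 3.80, 3.20, 3.68 and 3.42 in Nrp-1- iTreg. The groups overlapped, with replicate 4 of Nrp-1+ iTreg the lowest of all 8 libraries. The means were 3.10 ± 0.371 and 3.53 ± 0.268, and the log2 difference of -0.15 (SE 0.08, 95% interval -0.32 to 0.03) was not called (limma adjusted p = 0.164). About 186 to 341 fragments per library stood behind this level. The gene Haspin (listed as Gsg2), on the opposite strand inside Itgae and sharing no exon with it, was at 17.7 ± 0.692 and 10.9 ± 0.898 (log2 difference 0.65, limma adjusted p = 4.68e-05), and its part in the Itgae level was not tested. Of the markers of CD8 T cells, in which CD103 is common and which a CD4+ sort should leave out, Cd8b1 was at 7.86 and 10.0 but the defining Cd8a only at 0.057 and 0.047.

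Itgb7 stood at 28.0 ± 2.34 times the sum of its alpha chains Itga4 and Itgae in Nrp-1+ iTreg and at 29.0 ± 0.656 times in Nrp-1- iTreg, and these ranges overlapped. The ratio of Itgae to Itga4, the alpha chains that pair with beta 7, was 0.192 ± 0.0190 in Nrp-1+ iTreg and 0.231 ± 0.0170 in Nrp-1- iTreg (exact permutation p = 0.0286). The highest of the former and the lowest of the latter were both at 0.209. The ratio of Itgb7 to Itgb1, the chains that pair with alpha 4, was 14.1 ± 0.637 in Nrp-1+ iTreg and 24.0 ± 0.412 in Nrp-1- iTreg (exact permutation p = 0.0286). The ratio in Nrp-1+ iTreg was thus 0.586 times that in Nrp-1- iTreg, while Itgb7 itself was not called.

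**Figure D3:**
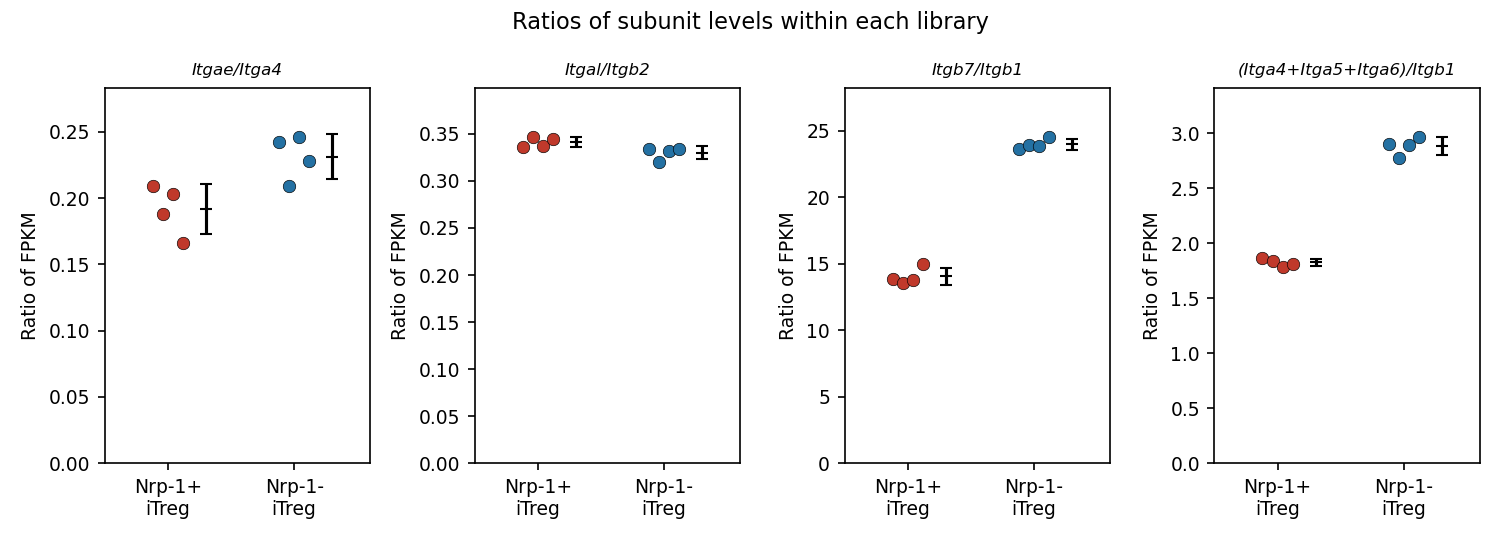
Ratios of FPKM within each library for Itgae to Itga4, Itgal to Itgb2, Itgb7 to Itgb1 and the sum of Itga4, Itga5 and Itga6 to Itgb1; points are libraries, bars are mean ± SD (n = 4), and all axes start at 0. Both ratios to Itgb1 are clearly lower in Nrp-1+ iTreg (14.1 against 24.0, and 1.83 against 2.89), whereas those of Itgae to Itga4 nearly touch at 0.209.

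The chains of LFA-1 were close to equal in the subsets. Itgb2, the beta 2 chain of all leukocyte-restricted beta 2 integrins, had an FPKM of 267.7, 262.9, 265.8 and 276.0 in Nrp-1+ iTreg and of 275.8, 278.1, 279.1 and 277.8 in Nrp-1- iTreg. Only Nrp-1+ replicate 4 reached into the range of the Nrp-1- libraries. The means were 268.1 ± 5.63 and 277.7 ± 1.37, and the log2 difference of -0.05 (SE 0.02, 95% interval -0.10 to -0.0038) was not called (limma adjusted p = 0.0799). It was called with array weights (-0.06, limma adjusted p = 0.0449) and without replicate 4 of Nrp-1+ iTreg (-0.06, limma adjusted p = 0.0187).

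Itgal, the alpha L chain, had an FPKM of 89.9, 91.3, 89.6 and 95.2 in Nrp-1+ iTreg and of 92.1, 88.9, 92.5 and 92.9 in Nrp-1- iTreg. The groups lay across each other, and the means were 91.5 ± 2.55 and 91.6 ± 1.81 (log2 difference -0.0015, SE 0.03, 95% interval -0.06 to 0.06, limma adjusted p = 0.970). The ratio of Itgal to Itgb2 was 0.341 ± 0.00557 in Nrp-1+ iTreg and 0.330 ± 0.00683 in Nrp-1- iTreg, without overlap (exact permutation p = 0.0286), a ratio of 1.03 between the subsets. With quantile normalization this difference fell short of the threshold (exact permutation p = 0.686 after adjustment).

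Itgb3, the beta 3 chain of the vitronectin receptor alpha v beta 3, was the member that was lower in Nrp-1+ iTreg. Its FPKM was 51.1, 49.9, 51.4 and 53.7 in Nrp-1+ iTreg and 62.5, 58.6, 62.7 and 60.8 in Nrp-1- iTreg. All Nrp-1+ libraries were below all Nrp-1- libraries. The means were 51.5 ± 1.61 and 61.1 ± 1.90, a log2 difference of -0.24 (SE 0.03, 95% interval -0.31 to -0.17, limma adjusted p = 0.000468), and in 20 alternative fits the difference stayed between -0.26 and -0.23. By size it ranked 2242 of 10467 genes. Its partner Itgav was at 8.75 ± 0.184 and 8.71 ± 0.277 (limma adjusted p = 0.891), so that Itgb3 stood at 5.89 ± 0.181 times Itgav in Nrp-1+ iTreg and at 7.02 ± 0.231 times in Nrp-1- iTreg. Itga2b, the other alpha chain of beta 3 and a platelet gene, was at 0.10 and 0.136, and the platelet genes Pf4, Ppbp and Gp9 were listed at 0 in all 8 libraries.

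In both subsets the order of levels, which FPKM allows since it is per length, was Itgb7, Itgb2, Itgal, Itgb3, Itga6, Itgb1, Itga4, Itgae and Itga5. In Nrp-1+ iTreg, Itgb3 and Itga6 could not be separated beyond their spread (51.5 and 51.3), nor could Itgae and Itga5. In Nrp-1- iTreg no neighbours in the order overlapped. Of the summed FPKM of the 4 beta chains, Itgb7 took 60.0% and 60.1% and Itgb2 29.9% and 30.7%, whereas Itgb1 took 4.27% ± 0.156 in Nrp-1+ iTreg and 2.50% ± 0.0419 in Nrp-1- iTreg, and Itgb3 5.75% ± 0.00977 and 6.75% ± 0.194. The difference in Itgb1 thus concerned a small part of the beta chain transcripts.

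Of the 17 other integrin subunits, 13 had means under an FPKM of 1 in both subsets, among them Itgb8, whose highest library was at 0.0554, and Itgax. Of the 4 that were tested, 1 was higher and 1 lower, or 50.0%, beside 40.9% of all genes tested. Itga7, an alpha chain of laminin receptors that pairs with beta 1, was at 6.88 ± 0.242 in Nrp-1+ iTreg and 10.3 ± 0.314 in Nrp-1- iTreg (log2 difference -0.53, SE 0.03, limma adjusted p = 9.24e-06). It thus differed from Itgb1 in direction. Itgam, the alpha M chain that pairs with beta 2 and a macrophage marker, was at 6.70 ± 0.252 and 5.56 ± 0.154 (log2 difference 0.23, SE 0.04, limma adjusted p = 0.00136), while the defining macrophage genes Lyz2, Csf1r, Adgre1 and Cd14 together stayed at or under 0.503 in every library. Itga3 was at 1.05 and 0.995 and was not called. Itga7 and Itgam kept their call and direction in 20 of 20 alternative fits.

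The genes around the integrins were grouped by role. Of the proteins that carry the inside-out signal to the beta chain, 13 of 16 were tested, 8 were lower in Nrp-1+ iTreg, 0 were higher and 5 were not called, with a median log2 difference of -0.10, beside 20.0% lower and a median of -0.0155 over all genes. The lower genes with the largest differences were Apbb1ip, which encodes RIAM, the link from Rap1 to talin (69.2 ± 2.93 against 79.2 ± 2.16, limma adjusted p = 0.00276), Rassf5, a Rap1 effector (121.6 ± 3.01 against 135.2 ± 2.12, limma adjusted p = 0.00128), Rasgrp2, which activates Rap1 (100.9 ± 2.80 against 111.9 ± 1.53, limma adjusted p = 0.00170) and Fyb, the adaptor ADAP (177.6 ± 5.52 against 195.0 ± 3.42, limma adjusted p = 0.00459). Their log2 differences, from -0.19 to -0.13, were smaller in size than that of Itgb3. Talin itself, Tln1, was at 99.7 ± 3.51 and 101.9 ± 4.56 and was not called (limma adjusted p = 0.533). The number of lower calls in this group went from 3 with quantile normalization to 11 with the GC and length correction.

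Of the 11 genes listed under integrin restraint, 10 were tested, with 6 lower in Nrp-1+ iTreg, 1 higher and 3 not called, and a median log2 difference of -0.15. The 3 not called include Snx17 (45.5 ± 1.18 against 48.0 ± 1.37, limma adjusted p = 0.0654), and whether each listed gene restrains integrins was not tested. The share called was 70.0%, beside 40.9% of all genes tested (20.9% higher and 20.0% lower). Over the alternative fits 6 to 7 of them were called lower and 0 to 1 higher. The largest differences were those of Rap1gap2, a GTPase activating protein for Rap1 (4.64 ± 0.193 in Nrp-1+ iTreg against 3.80 ± 0.129, limma adjusted p = 0.00245), Rhoh, a GTPase of blood cells known to keep LFA-1 inactive (42.9 ± 0.769 against 50.6 ± 2.39, limma adjusted p = 0.00113), Itgb1bp1, or ICAP-1, which binds the beta 1 tail in place of talin (26.7 ± 1.27 against 30.6 ± 1.34, limma adjusted p = 0.00861), and Rasa3, which switches off Rap1 and Ras (120.8 ± 1.64 against 136.7 ± 2.76, limma adjusted p = 0.000333). Only Rap1gap2 of these was higher in Nrp-1+ iTreg.

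In the group of adhesion complex and outside-in signalling genes, 15 of 24 were tested, with 4 higher, 6 lower and 5 not called. That is a share of 66.7%, again beside 40.9% of all genes. Of the actin cross-linkers, Actn1 was lower in Nrp-1+ iTreg (73.2 ± 1.66 against 97.3 ± 1.42, log2 difference -0.41, limma adjusted p = 3.71e-06) and Actn4 higher (87.8 ± 0.693 against 74.5 ± 0.842, log2 difference 0.23, limma adjusted p = 1.97e-05). Vcl, or vinculin, which ties talin to actin (2.51 ± 0.342 against 1.68 ± 0.106, limma adjusted p = 0.00461), and Tns1, a tensin that binds beta chain tails (2.96 ± 0.222 against 2.13 ± 0.153, limma adjusted p = 0.00275), were higher from low levels. The kinase Fak (Ptk2) was at 1.29 and 0.971 and was not called, whereas its relative Ptk2b was lower, at 72.1 and 82.7 (limma adjusted p = 0.000198).

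Few genes of integrin ligands reached the filter, at 5 of 26, with 1 higher and 1 lower, a share called of 40.0% that lies at the 40.9% of all genes. Lamc1, a laminin chain, was at 4.21 ± 0.133 in Nrp-1+ iTreg and 3.43 ± 0.154 in Nrp-1- iTreg (limma adjusted p = 0.00269), and Icam2, a ligand of LFA-1, at 39.1 ± 2.11 and 44.3 ± 1.58 (limma adjusted p = 0.0119). Icam1, the main ligand of LFA-1, was at 20.3 and 19.7 and was not called (limma adjusted p = 0.456). Of the membrane partners, 11 of 12 were tested, with 2 higher, 1 lower and 8 not called, a share called of 27.3%, under that of all genes. These called genes were the tetraspanins Cd53, lower at 210.9 ± 6.43 against 258.2 ± 2.58 (limma adjusted p = 4.96e-05), Cd81, higher at 58.4 ± 2.61 against 50.9 ± 2.25 (limma adjusted p = 0.00668), and Cd82, higher at 137.4 ± 7.0 against 125.4 ± 2.79 (limma adjusted p = 0.0238). With the GC and length correction 0 of the partners were called higher, although the log2 difference of Cd81 stayed between 0.15 and 0.22 and that of Cd82 between 0.08 and 0.15 in the 20 alternative fits. Without replicate 3 of Nrp-1+ iTreg 1 partner was higher and 2 were lower, and without replicate 1 or 3 of Nrp-1- iTreg 1 was higher, since Cd82 was not called; it kept its call in 14 of the 20 fits.

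**Figure D4:**
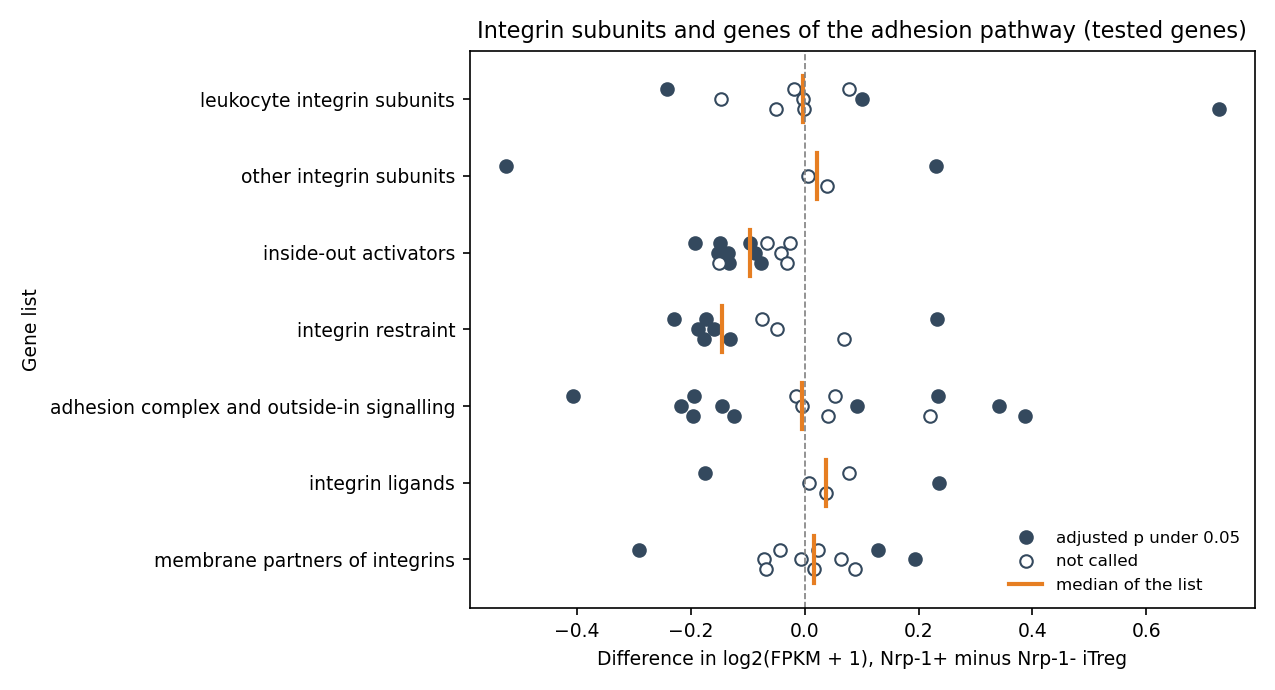
Log2 difference in FPKM + 1, Nrp-1+ minus Nrp-1- iTreg, of each tested gene in the 9 members and the 6 lists around them (4 to 15 tested genes each); filled points have a limma adjusted p under 0.05 and the bar is the median of the list. Itgb1 at 0.73 lies to the right of every gene of the 6 lists, and the medians of the inside-out activators and the integrin restraint list lie at -0.10 and -0.15.

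The genes whose pattern over the 8 libraries was most like that of Itgb1 were found from the mean absolute difference of centred log2(FPKM + 1) values. The SD of Itgb1 was only 1.12% and 1.77% of its mean in Nrp-1+ and Nrp-1- iTreg. The measure thus mainly finds genes with a like difference between the groups, and it understates the change of low genes such as Fam129b. The closest was Mcm6, a subunit of the replicative helicase, at a mean difference of 0.0209, with an FPKM of 99.8 in Nrp-1+ iTreg and 60.9 in Nrp-1- iTreg. Next came Fam129b (0.0221, at 3.92 and 1.98), Arhgap11a (0.0233, at 33.6 and 19.3), Dnmt1, the maintenance DNA methyltransferase (0.0233, at 82.5 and 48.5) and Mcm2, another helicase subunit (0.0258, at 43.5 and 25.7). None of these 5 is an integrin or a gene of the 6 lists.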

How the data were processed

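RNA-seq was performed on iTreg sorted by Nrp-1, with 4 libraries a subset. The authors used the CLC Genomics Workbench for the reads and Cufflinks for FPKM, and deposited FPKM values by gene symbol. The submitters' processing notes name GRCm38 and mm10; aligner settings and annotation are not given in the sources used here. No scaling between libraries beyond that of FPKM is described. The nTreg libraries of the study were not analysed here.

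The test was that of limma 3.58.1 (lmFit, eBayes with trend, R 4.3.3) on log2(FPKM + 1), for genes whose mean FPKM was 1 or more, with p-values adjusted by Benjamini-Hochberg. The study's methods name the Mann-Whitney test, so overlap of the groups is given too. Ratios were tested by exact permutation in Python 3.11.15 (scipy 1.17.1). The fit was tested on simulated data. Members and lists were chosen with earlier results of these data known. All members were named, with up to 4 called genes of largest log2 difference per list and the 5 genes most like the member with the largest difference. Listed genes needed to say which partner subunits were measured were also named (Itgav, Itga2b, Itga3, Itgax, Itgb8). Others were added after their values were seen (Tln1, Ptk2, Ptk2b, Icam1, Snx17, and the markers and overlapping or neighbouring genes given). Depth was approximated from values under 0.3 FPKM and GENCODE transcript lengths. Alternatives were pseudocounts of 0.1 and 0.5, no filter, a filter at 5, size factors, quantile normalization, a replicate block, no trend, array weights, no short RNA genes, GC and length splines (5 degrees of freedom) with and without block, and each library left out.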

Additional observations from a re-analysis of the deposited data

Results flagged for a closer look

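The approximate depth of replicate 3 of Nrp-1+ iTreg, 22.6 M fragments (M for 1e+06), stood apart from the other libraries of its group, which had 18.8 M to 18.9 M. It was found by screening 28 groups of 4 libraries, of which chance alone would give about 1.4. None of the levels or ratios of the 9 subunits in that screen held a library that stood apart.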

How the results depend on the processing

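Itgb1 and Itgb3 kept their direction and call in 20 of 20 alternative fits, with log2 differences of 0.69 to 0.75 and of -0.26 to -0.23 (limma adjusted p from 1.05e-09 to 0.000206 and from 6.73e-05 to 0.00355). The number of members called higher was 1 instead of 2 with the GC and length correction, with that correction and the replicate block together, and with quantile normalization, in each case through the loss of Itga6, and the number called lower was 2 with array weights, through Itgb2. Where the filter was set at an FPKM of 5, 5 listed genes were called higher, instead of 9, and Itgae and Itga5 gave no value, since fewer genes were tested. Members with differences near 0 changed sign, Itgb7 to 0.010 with quantile normalization, and Itgal to 0.0047 and Itga5 to 0.0013 with size factors; none of them was called. The log2 ratio of Itgal to Itgb2 was 0.034 with quantile normalization (exact permutation p = 0.686 after adjustment), and the cause was not tested.

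With single libraries left out, the number of members called higher went from 1 to 3 and lower from 1 to 2, Itgal from -0.020 to 0.0084, Itga5 from -0.044 to 0.056 (the latter without replicate 3 of Nrp-1- iTreg), Itgae from -0.19 to -0.083 (the latter without replicate 4 of Nrp-1+ iTreg), Itgb7 from -0.044 (without that same library) to -0.00086 (without replicate 2 of Nrp-1+ iTreg), none of these being called in any of these fits, and the log2 ratios from -0.32 to -0.21 (Itgae to Itga4), 0.035 to 0.057 (Itgal to Itgb2), -0.80 to -0.76 (Itgb7 to Itgb1) and -0.68 to -0.64 (alpha chains to Itgb1). Without replicate 4 of Nrp-1+ iTreg 3 members were called higher and 2 lower, and without its replicate 1 Itga6 was lost. The ratio tests then cannot pass, since 3 against 4 libraries allow no exact p under 0.0571.

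Same-numbered libraries showed no clear positive shared deviation. The correlations of deviations went from -0.54 to 0.01 over all tested genes, with replicates 1 and 4 at -0.54 and -0.50. Without short RNA genes they went from -0.11 to -0.04. These values do not settle pairing by number, which the labels leave unstated, and the libraries were treated as unpaired. With the replicate block the limma fit called the same number of members, 2 higher and 1 lower, and the log2 ratios of -0.27, 0.049, -0.77 and -0.66 had an exact sign-flip permutation p of 0.125, the smallest that 4 pairs allow. Over all genes the alternatives called 1588 to 2299 higher and 1675 to 2747 lower. Itgae and Itga5 had the fewest fragments of the 9 members.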

Other observations

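The genome position of the members was looked up after their values had been seen. Itgb1 lies 180 kb from Nrp1, the gene whose protein defined the sort, on chromosome 8 of GRCm38.p6. Nrp1 lies at chr8:128358591-128505476, the RefSeq annotation places 0 protein coding genes between the pair, and both were higher in Nrp-1+ iTreg, Nrp1 at 21.5 ± 0.709 against 4.95 ± 0.262 (log2 difference 1.92, SE 0.04, limma adjusted p = 1.35e-07). The nearest tested gene on the other side of Itgb1, 2610044O15Rik8, 483 kb away, was at 7.69 and 7.64 and was not called (limma adjusted p = 0.904). Of the nearest tested protein coding genes on both sides of the 9 members, 12 of 18 were called, 7 higher and 5 lower, beside 40.9% of all genes tested; the higher ones include Nrp1 itself, whose difference was set by the sort.

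Zfp385a, which lies 4199 bases from Itga5, was at 2.70 in Nrp-1+ iTreg and 1.48 in Nrp-1- iTreg (log2 difference 0.58, limma adjusted p = 0.000603), whereas Itga5 was at 2.40 and 2.41. Pdk1, 14.8 kb from Itga6, was at 56.4 and 71.1 (log2 difference -0.33, limma adjusted p = 5.32e-05), opposite in direction to Itga6. These neighbours were chosen after their values were seen.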
